A study of Mus musculus with 2 samples.

Results

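Circadian clock genes were examined in hair follicles of dnFGFR2-IIIb transgenic and wild-type mice at postnatal day 10. The genes were chosen by symbol, and were Arntl, Clock, Per1, Per2, Per3, Cry1, Cry2, Nr1d1, Nr1d2 and Dbp. They were read by 23 of the 45037 probe sets on the array, a probe set being a group of probes directed at one transcript, and made up 10 of the 18193 genes with a symbol of their own. The transgenic mice carried dnFGFR2-IIIb, derived from the epithelial IIIb variant of fibroblast growth factor receptor 2. The wild-type mice carried no transgene according to their label. Each group was 1 array, hybridised with RNA pooled from 3 mice of separate litters, about 100 follicles a mouse and some 300 in all. The promoter of the transgene, the strain, the sex, the hour of the day at which follicles were taken and the light schedule are not stated in the labels.

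The circadian clock is a feedback loop of transcription that runs in most cells of the body. The proteins of Arntl (also called BMAL1) and Clock pair up and activate genes through a DNA element called the E-box, among them the Per, Cry and Nr1d genes and Dbp. The PER and CRY proteins return to inhibit that pair, while in a second loop the NR1D (REV-ERB) repressors and the ROR activators compete at an element called the RORE, which controls Arntl. In mouse skin, clock genes are expressed in the hair follicle, and loss of Arntl is known to delay the growth phase of the hair cycle. In a tissue with a running clock, RNA of Arntl and RNA of Dbp, Per and Nr1d1 peak at different times of day, so that the level of each depends on when the tissue is taken.

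With 1 pool per group there was no replicate spread, no test and no p-value, and pooling hides the differences between mice. A difference in the hour of sampling, in the sex of the mice, in the litters or in the handling of the pools cannot be told apart from a difference of genotype. RNA of sex-linked genes did differ between the pools, as given below. In whole follicles, fewer cells of a type and less RNA per cell cannot be told apart either. Signals are linear intensities in arbitrary units, and a signal counted as measured when it exceeded a floor of 10.5, the 40th percentile of both arrays. The highest of 27 control probe sets with no target in the mouse read 15.8 in the transgenic pool and 8.5 in the wild-type pool. RNA integrity, read as 3' over 5' signal, came to 2.06 in the transgenic pool and 1.89 in the wild-type pool for beta-actin, and to 0.852 and 0.796 for Gapdh. The error of a log2 ratio (transgenic over wild type) was taken from probe sets of the same gene, whose ratios scattered with an SD of 0.48 among dim genes, 0.39 among genes of middle brightness and 0.24 among bright ones. This spread is technical and leaves out the mice.

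Most clock genes were dim in these follicles, and 0 of the 10 were 2-fold higher or 2-fold lower with both signals measured. Nr1d1 was below the floor in the wild-type pool and was at least 3.28-fold higher on the transgenic array. Among all 11565 genes measured on both arrays, the share past 2-fold was 1.6% for higher and 1.58% for lower signals in the transgenic pool, and in the dim tertile of genes 4.12% and 3.58%. Against shares of this size a count of 0 among 9 genes says little. By the probe set with the highest mean, 8 members had a ratio above 1 and 2 had a ratio below 1. Nr1d1, measured on the transgenic array alone, was among the 8. Of all 14045 genes measured on at least 1 array, 7203 had a ratio above 1. The median log2 ratio of the members was 0.43, beside 0.01 over all these genes. That median depended on the probe set chosen. With the mean over all probe sets of each gene it was -0.04, with 5 members above 1 and 5 below.

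Of the 23 probe sets, 15 were measured on both arrays, 1 on the transgenic array alone, 3 on the wild-type array alone and 4 on neither. Of the 15, 11 had a ratio above 1 and 4 a ratio below 1. For 8 of the 15 the log2 ratio was larger than 1 SD between probe sets, and for 0 it was larger than 2 SD. Counted by gene, 7 of the 9 members measured on both arrays had a ratio above 1, beside 49.9% of all genes so measured. Only 10 probe sets exceeded 15.8, the level of the brightest control without a target, on both arrays. The highest member signal was 157, so that 0 members belonged to the bright tertile, 3 lay in the middle tertile of brightness and 7 in the dim one.

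**Figure D1:**
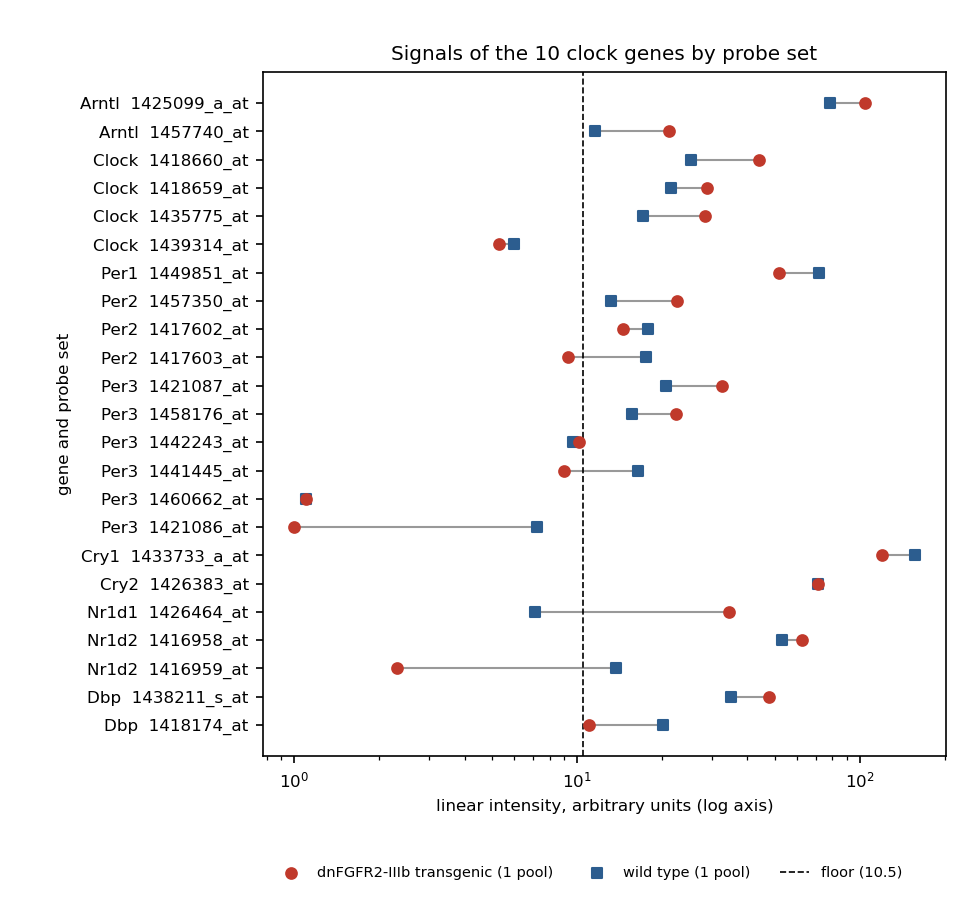
Linear intensity (log axis) of each of the 23 clock gene probe sets on the transgenic array (red circles) and the wild-type array (blue squares), 1 pool each, with the floor of 10.5 as a dashed line. Most points lie between the floor and 157, Nr1d1 has its wild-type point at 7.10 under the floor, and for Per2, Per3 and Dbp the transgenic point lies right of the wild-type point in some probe sets and left of it in others.

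The activator genes Arntl and Clock read higher on the transgenic array in every probe set measured on both arrays, by less than 2-fold. Clock encodes one partner of the activating pair. Its probe set 1418660_at read 44.0 in the transgenic pool and 25.3 in the wild-type pool, a log2 ratio of 0.80. Probe set 1435775_at read 28.3 in the transgenic pool and 17.1 in the wild-type pool, a log2 ratio of 0.73, and 1418659_at read 28.8 and 21.5, a log2 ratio of 0.42. The fourth, 1439314_at, was under the floor on both arrays. The 3 measured probe sets of Clock thus lay on one side, with a mean log2 ratio of 0.65 and an SD between them of 0.20. Over 5 other scalings the lowest of them, 1418659_at, gave log2 ratios from 0.28 to 0.61. These scalings move a ratio too little to turn such a sign. Of the 2192 genes with at least 3 probe sets measured on both arrays, 19.5% had all ratios above 1.

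Arntl encodes the other partner of the pair, whose loss alone stops the rhythm in mice. Its brighter probe set, 1425099_a_at, read 104 in the transgenic pool and 78.4 in the wild-type pool, a log2 ratio of 0.41, or 1.33-fold. Probe set 1457740_at read 21.1 in the transgenic pool and 11.6 in the wild-type pool, a log2 ratio of 0.86. Both ratios exceeded the SD between probe sets of like brightness, 0.39 and 0.48, and neither reached 2 SD. The first ratio exceeded that of 86.8% and the second that of 92.5% of the probe sets of like brightness. Over the 5 other scalings the brighter probe set gave log2 ratios from 0.27 to 0.60.

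A match to the RORE, the element through which REV-ERB and ROR proteins act on Arntl, is shown here. It was chosen because their genes Nr1d1 and Rora had the highest log2 values among the members and among the other clock transcription factors. RefSeq promoter windows of build GRCm38.p6 run from 250 bases before to 50 bases after each transcript start. Of the 10 members, 9 had at least 1 window, and Per2 had none. The RORE was searched on both strands as AANT followed at once by AGGTCA or GGGTCA, and 0.435% of all 32851 windows hold it. Among the 13 member windows, 1 held it, the second of Arntl (chr7:113207261-113207560, plus strand). The match, in capitals, lies at bases 28 to 37 after the start. The similar letters AAGTAGGTTA, in lower case in this window and also in the first Arntl window, lay outside the search and were not counted.
Arntl: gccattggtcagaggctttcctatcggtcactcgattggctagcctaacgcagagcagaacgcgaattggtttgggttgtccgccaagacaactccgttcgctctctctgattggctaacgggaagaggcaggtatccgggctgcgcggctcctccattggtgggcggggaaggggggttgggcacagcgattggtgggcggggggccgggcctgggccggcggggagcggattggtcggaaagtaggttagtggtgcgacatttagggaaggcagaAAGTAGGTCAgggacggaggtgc

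The repressors of that element differed from each other. Nr1d1 encodes REV-ERB alpha, a haem-binding nuclear receptor that represses Arntl. Its only probe set, 1426464_at, read 34.4 in the transgenic pool and 7.10 in the wild-type pool, which lies under the floor. The fold of at least 3.28 is taken against the floor, and its log2 value was 1.71, from 1.63 to 1.80 over the 5 other scalings. Of the 1432 genes measured on the transgenic array alone, 14.9% were at least 2-fold above the floor, and 17 genes (1.19%), Nr1d1 included, were as far above it as Nr1d1. With the floor set at 15.8, a choice made after seeing the data, the log2 bound was 1.12, and with the floor at the 60th percentile it was 0.31 and no longer 2-fold.

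Nr1d2, which encodes the related REV-ERB beta, showed no such difference. Its brighter probe set, 1416958_at, read 62.4 in the transgenic pool and 53.3 in the wild-type pool, a log2 ratio of 0.23 that is under 1 SD between probe sets. The other, 1416959_at, read 2.3 and 13.7, so that it lay under the floor in the transgenic pool, and its bound of -0.38 pointed the other way. The genes of this pair therefore read differently in these pools, but with 1 array per group the difference between them was not tested.

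The Period genes, whose proteins inhibit the activating pair, had ratios on both sides of 1. Per1, which many stimuli induce rapidly, read 51.7 in the transgenic pool and 72.0 in the wild-type pool with its probe set 1449851_at, a log2 ratio of -0.48 that is just under 1 SD between probe sets. Over the 5 other scalings its log2 ratio ran from -0.62 to -0.29. Per2, whose loss shortens or abolishes the rhythm in mice, gave opposite signs. Probe set 1457350_at read 22.6 in the transgenic pool and 13.2 in the wild-type pool, a log2 ratio of 0.78. Probe set 1417602_at read 14.5 and 17.9, a log2 ratio of -0.30, and 1417603_at read 9.30 and 17.6, which is under the floor in the transgenic pool. No direction can be given for Per2.

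Per3, the member of the family least needed for the rhythm, had 6 probe sets. Probe set 1421087_at read 32.7 in the transgenic pool and 20.7 in the wild-type pool, a log2 ratio of 0.66. Probe set 1458176_at read 22.4 in the transgenic pool and 15.6 in the wild-type pool, a log2 ratio of 0.52. Both lay above 1, by slightly more than 1 SD between probe sets. Probe set 1441445_at went the other way, at 9.00 on the transgenic array, under the floor, and 16.4 on the wild-type array. The remaining 3 were under the floor on both arrays, with signals from 1.0 to 10.2 in the transgenic pool and from 1.10 to 9.70 in the wild-type pool.

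The Cryptochromes, partners of the PER proteins and the stronger repressors of the activating pair, had 1 probe set each. Cry1 (1433733_a_at) read 120 in the transgenic pool and 157 in the wild-type pool, a log2 ratio of -0.38 that is under 1 SD between probe sets. Among probe sets of like brightness, 11.2% had a lower ratio. Cry2 (1426383_at) read 71.3 in the transgenic pool and 70.9 in the wild-type pool, a log2 ratio of 0.01 whose sign turned under 3 of the 5 other scalings. By the brightest probe set of each gene, Per1 and Cry1 were the members with ratios below 1, and neither reached 1.5-fold.

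Promoter elements of the Per and Cry genes are shown because E-boxes and D-boxes are the elements through which the activating pair and DBP act on clock genes. The E-box was searched as CACGTG, which reads the same on both strands, and 7.15% of all windows hold it. The D-box was searched as TTATGTAA or TTACGTAA on both strands and is in 1.06% of all windows. The cyclic AMP response element TGACGTCA, in 1.79% of all windows, was in 0 of the 13 member windows. Of the members, 2 (Per1 and Cry1) held an E-box and 1 (Per3) held D-boxes in these windows, and no match overlapped another. Per2 had no window and was not searched. In Per1 (chr11:69098699-69098998, plus strand) the E-box in capitals lies at positions -166 to -161, counted back from the start, and in Cry1 (chr10:85185005-85185304, minus strand) at -60 to -55. In Per3 (chr4:151044616-151044915, minus strand) the D-boxes in capitals begin at -205 and -158. A match is a description of the letters in the window and says nothing about binding in these follicles.
Per1: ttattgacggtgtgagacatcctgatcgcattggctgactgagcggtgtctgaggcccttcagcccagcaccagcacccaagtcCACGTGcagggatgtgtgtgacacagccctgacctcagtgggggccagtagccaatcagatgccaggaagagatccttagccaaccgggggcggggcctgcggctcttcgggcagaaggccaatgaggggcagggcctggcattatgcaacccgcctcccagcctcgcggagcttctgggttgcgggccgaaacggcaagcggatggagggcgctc
Cry1: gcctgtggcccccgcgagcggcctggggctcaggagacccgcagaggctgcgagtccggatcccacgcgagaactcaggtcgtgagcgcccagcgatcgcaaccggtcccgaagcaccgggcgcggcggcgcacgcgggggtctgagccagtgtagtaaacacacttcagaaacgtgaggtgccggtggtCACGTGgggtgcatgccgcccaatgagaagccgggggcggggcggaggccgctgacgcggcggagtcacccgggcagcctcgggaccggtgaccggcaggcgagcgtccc
Per3: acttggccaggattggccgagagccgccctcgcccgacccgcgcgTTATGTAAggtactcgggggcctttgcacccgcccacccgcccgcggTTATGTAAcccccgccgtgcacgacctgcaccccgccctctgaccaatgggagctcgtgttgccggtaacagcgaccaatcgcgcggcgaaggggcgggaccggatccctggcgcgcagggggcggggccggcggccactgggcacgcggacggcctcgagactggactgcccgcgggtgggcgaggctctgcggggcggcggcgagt

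Dbp encodes a transcription factor that binds the D-box and is among the genes of the clock whose RNA swings most over the day in mouse tissues. Its probe sets disagreed. Probe set 1438211_s_at read 47.9 in the transgenic pool and 35.1 in the wild-type pool, a log2 ratio of 0.45, and 1418174_at read 11.0 and 20.2, a log2 ratio of -0.88. The dimmer one was near the floor in the transgenic pool, and 4.45% of probe sets of like brightness had a lower ratio. The direction of Dbp was therefore not settled.

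**Figure D2:**
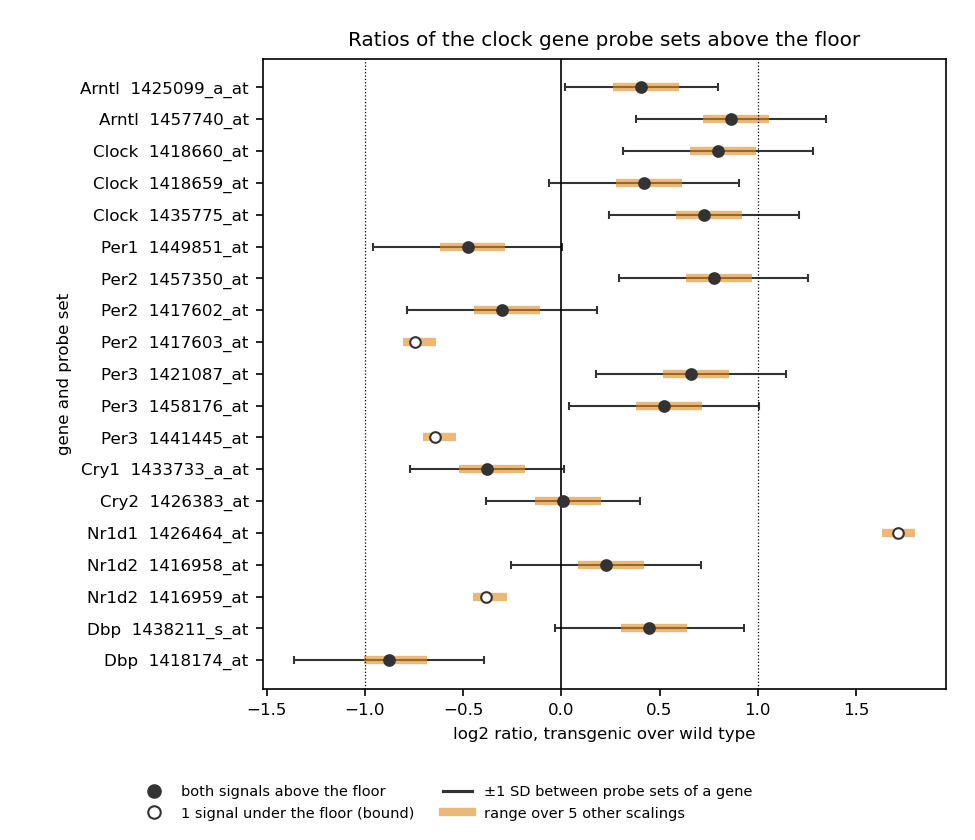
Log2 ratio of transgenic over wild type for the 19 clock gene probe sets measured on at least 1 array. Filled circles have both signals above the floor and carry ±1 SD between probe sets of a gene, open circles are bounds against the floor, orange bars span 5 other scalings and dotted lines mark 2-fold; Nr1d1 is the only point past 2-fold, and Per2, Per3, Nr1d2 and Dbp have points on both sides of 0.

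The relation between the arms of the loop depended on the probe sets and the floor. By the brightest probe sets, the 8 repressor and output genes had a median log2 ratio of 0.34 and the 2 activators one of 0.60, so that the first median minus the second was -0.27. A constant scaling of an array cancels in this difference, so that equal medians, no rescaling and equal spiked controls could not change it. The floor at the 20th percentile and the floor at the brightest control without a target left it unchanged too. The difference was negative under all 13 settings run, a count that includes these and the main setting and so says little about its stability. Under 2 of them the medians had opposite signs, at -0.08 for the repressor and output genes and 0.56 for the activators with the mean over probe sets, and at -0.19 and 0.41 with a floor of 50, where Arntl alone stands for the activators. Under the other 11 both were above 0. The log2 ratios of the 8 genes ran from -0.48 to a bound of 1.71. The clock phase of the pools was not tested.

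**Figure D3:**
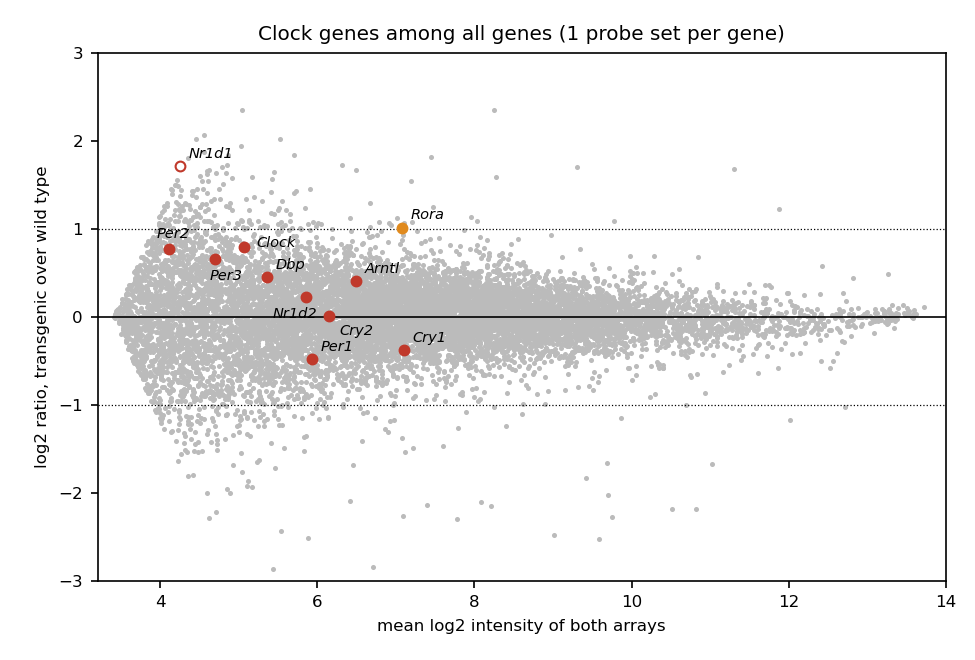
Log2 ratio of transgenic over wild type against mean log2 intensity of both arrays, with 1 probe set per gene. Grey points are the genes measured on both arrays (5 of them beyond the axis), red points are the 10 clock genes (Nr1d1 open, a bound), the orange point is Rora, and dotted lines mark 2-fold; 7 of the clock genes lie in the dim tertile, at the left, and 3 in the middle one.

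Of 12 other transcription factors of the clock on the array, 8 were measured on both arrays. Among these, Rora was at least 2-fold higher on the transgenic array and 0 were 2-fold lower. Over all genes measured on both arrays, 1.6% were 2-fold higher and 1.58% 2-fold lower. Rora encodes ROR alpha, the activator that competes with the REV-ERB repressors at the RORE of Arntl. Its brightest probe set, 1424034_at, read 193 in the transgenic pool and 95.3 in the wild-type pool, a log2 ratio of 1.01. Probe set 1436326_at read 191 in the transgenic pool and 83.0 in the wild-type pool, and 1436325_at read 187 and 47.5, log2 ratios of 1.20 and 1.97. Of 9 probe sets, 7 were measured on both arrays, all 7 had a ratio above 1 and 5 were at least 2-fold higher, with a mean log2 ratio of 1.07 and an SD between probe sets of 0.55. The lowest of the 7, 1424035_at, had a log2 ratio of 0.19 at signals of 22 and 19.3, and 1441085_at read 2.60 and 15, below the floor in the transgenic pool. Of 320 genes with at least 5 probe sets measured on both arrays, Rora was the one with 5 or more at 2-fold, a threshold chosen after its values were seen. Over all 9 probe sets, with signals under the floor set to it, the mean log2 ratio was 0.77, so that Rora was not 2-fold higher with the mean over probe sets. Whether its probe sets read different parts of the transcript is not known here. The brightest probe set did not reach 2-fold with equal medians, at a log2 ratio of 0.87, and reached 1.21 with equal spiked controls.

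**Figure D4:**
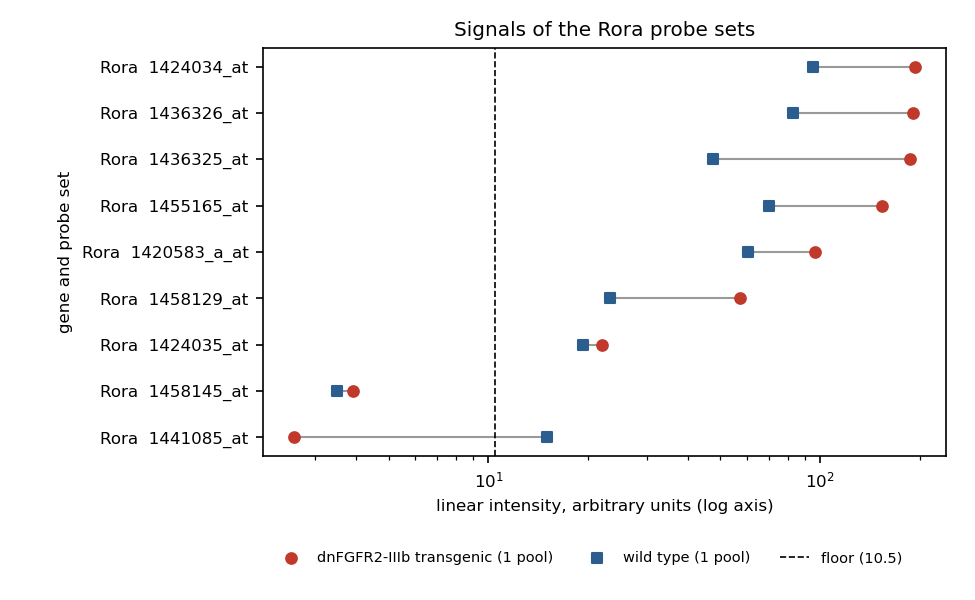
Linear intensity (log axis) of the 9 Rora probe sets on the transgenic array (red circles) and the wild-type array (blue squares), 1 pool each, with the floor of 10.5 dashed. In the 7 probe sets measured on both arrays the transgenic point lies to the right, from 22 against 19.3 to 193 against 95.3.

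By their brightest probe sets the rest of this list was less than 2-fold apart. Hlf, a D-box binding relative of Dbp, read 20.5 in the transgenic pool and 36.4 in the wild-type pool, and its log2 ratios were -0.83 and -0.62 in its 2 probe sets. Ciart, a repressor of the activating pair, read 23.3 in the transgenic pool and 14.9 in the wild-type pool, a log2 ratio of 0.64. Timeless, of middle brightness, read 109 in the transgenic pool and 75.0 in the wild-type pool, a log2 ratio of 0.54, with 0.26 at its other probe set. Tef, another D-box binding relative of Dbp, had a log2 ratio of -0.11 in its brightest probe set, while 1450184_s_at read 29.7 in the transgenic pool and lay under the floor in the wild-type pool, at least 2.83-fold higher. Arntl2, a relative of Arntl, was below the floor in the transgenic pool and read 13.1 in the wild-type pool. Npas2, which can stand in for Clock, and Rorb were under the floor on both arrays. Of the 10 genes measured on at least 1 array, 4 had a ratio above 1 and the median log2 ratio was -0.12, which became 0.07 with equal spiked controls.

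Enzymes and cofactors that set the speed of the clock by modifying or degrading its proteins had more ratios above 1 than below. Of 15 genes measured on both arrays, 10 (66.7%) had a ratio above 1, beside 49.9% of all genes so measured. The median log2 ratio of the 16 genes measured on at least 1 array was 0.17, and it was 0.03 with equal medians and 0.37 with equal spiked controls. Of these genes 1 was 2-fold higher and 0 lower. Among all genes measured on both arrays 1.6% were 2-fold higher, and 4.12% in the dim tertile, where that gene lies. The 1 was Prkaa1, a catalytic subunit of AMP-activated protein kinase, which marks CRY proteins for degradation. It read 65.0 in the transgenic pool and 31.2 in the wild-type pool, a log2 ratio of 1.06 that became 0.92 with equal medians. Prkaa2, the other catalytic subunit, read 20.1 in the transgenic pool, against a signal under the floor in the wild-type pool, a log2 bound of 0.94. The deacetylase gene Sirt1 read 247 in the transgenic pool and 168 in the wild-type pool, a log2 ratio of 0.56. Csnk2a1, a casein kinase subunit, had ratios above 1 in 5 of 5 probe sets measured on both arrays, with log2 ratios of 0.54 in the brightest and from 0.12 to 0.74 in the others. Btrc, which targets PER proteins for degradation, had a log2 ratio of -0.77 in one dim probe set and 0.36 in another. The kinase genes Csnk1d and Csnk1e and Gsk3b were measured and were not 2-fold apart in their brightest probe sets.

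Output genes that follow the clock in many tissues gave no 2-fold difference in their brightest probe sets. Of 9 measured, 4 had a ratio above 1 and the median log2 ratio was -0.12. After Hlf, the farthest from 0 was Tsc22d3, also a target of glucocorticoids, at 0.50, but with -1.10 (a 2-fold lower signal, 23.1 in the transgenic pool and 49.5 in the wild-type pool) and -0.30 at other probe sets. Tspan4, which encodes a tetraspanin, read 78.2 in the transgenic pool and 106 in the wild-type pool, a log2 ratio of -0.44. Nampt, which makes a precursor of NAD, had a log2 ratio of -0.29.

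Glucocorticoids and body temperature are cues that set the clock of peripheral tissues, and their response genes were read alongside. Among all 11565 genes measured on both arrays, 5794 had a ratio below 1 and 1.58% were 2-fold lower. Of 9 glucocorticoid response genes, 6 had a ratio below 1, with a median log2 ratio of -0.32, and 1 was 2-fold lower. The 1 was Zbtb16, a zinc finger transcription factor, at 11.6 in the transgenic pool and 106 in the wild-type pool, a signal close to the floor in the transgenic pool. Another probe set, 1419874_x_at, was under the floor in the transgenic pool and read 30.9 in the wild-type pool, and 1427638_at gave a log2 ratio of 0.03. With the floor at 15.8, at the 60th percentile or at 50 the transgenic signal was under it, so that the ratio was a bound and no longer counted as measured on both arrays. The phosphatase gene Dusp1 read 75.5 in the transgenic pool and 129 in the wild-type pool, a log2 ratio of -0.78. Errfi1 and Sgk1 had log2 ratios of -0.51 and -0.41, and like Dusp1 and Per1 they are also induced by other stimuli. The 3 with a ratio above 1 in their brightest probe sets were Tsc22d3, Nfkbia and Fkbp5, at log2 ratios of 0.50, 0.20 and 0.06. Another probe set of Fkbp5, 1448231_at, gave 0.97. Of 7 temperature response genes 0 were 2-fold apart, and the median log2 ratio was 0.00. The cold-inducible gene Cirbp gave a log2 ratio of -0.50 and Hsph1, a heat shock gene, one of 0.47 with 0.09 at its other probe set. Hspa1b followed at 0.23, with 0.03 at another probe set, and Hspa8 at -0.14, with the other sign at 2 probe sets, 0.26 and 0.14.

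**Figure D5:**
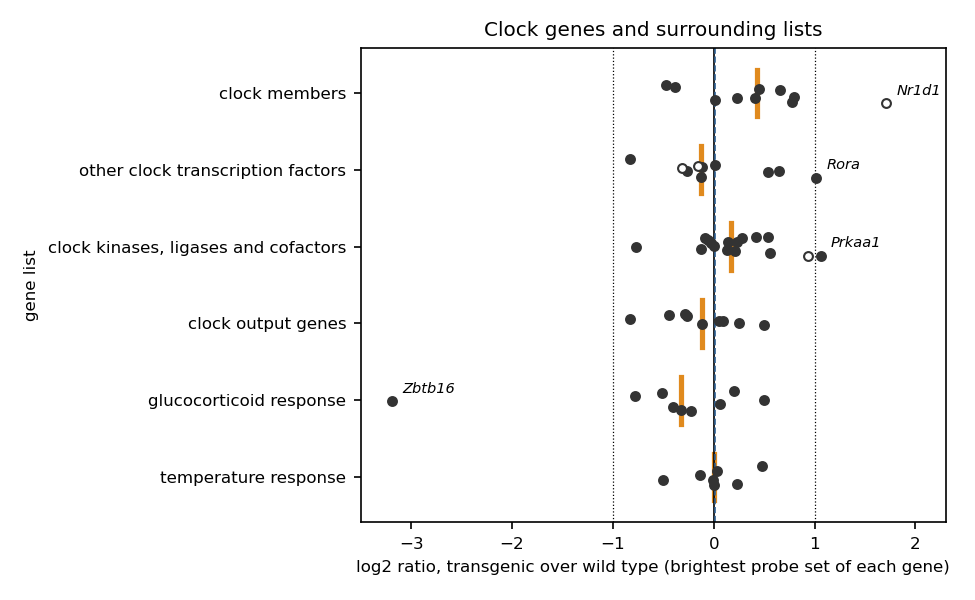
Log2 ratio of transgenic over wild type for the brightest probe set of each clock gene and of each gene in 5 surrounding lists, limited to genes above the floor on at least 1 array. Filled points have both signals above the floor and open points are bounds, orange bars are list medians (0.43 for the clock genes), the blue dashed line is the median of all genes at 0.01, dotted lines mark 2-fold and genes past it are named.

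Markers of the cell types in the follicle and around it were read beside these values. Hair shaft keratins, which mark the labelled tissue, summed to 78980 in the transgenic pool and 76120 in the wild-type pool, with 11 of 11 measured, but among them Krt84 read 29.4 and 619. Markers of the epidermis between follicles summed to 13670 in the transgenic pool and 17040 in the wild-type pool. The cornified envelope gene Ivl read 683 and 3110, while Krt77 read 63.8 and 16.6. Of the 8 epidermis markers measured on both arrays, 4 had a ratio above 1 and 4 below. The median log2 ratio of the 9 measured on at least 1 array was 0.39. Adipocyte markers summed to 5200 and 7355, of which Fabp4 alone read 5108 and 7211. The adipokine gene Adipoq read 65.3 in the transgenic pool and 139 in the wild-type pool. Lep went the other way, at 26.7 in the transgenic pool and under the floor in the wild-type pool. Melanocyte markers summed to 12290 and 13570, with 6 of 8 below 1. Immune cell markers summed to 174 in the transgenic pool and 71.4 in the wild-type pool, and 2 of the 9 were measured on both arrays, both with a ratio above 1. Another 4 were measured on the transgenic array alone, which fixes their direction, and Ptprc, Cd207 and Cd3e were under the floor on both arrays. Markers of Schwann cells and nerve summed to 169 and 250, with 1 of 5 above 1, and those of the outer root sheath and bulge to 1957 and 2396, with 1 of 8 above 1. Dermal papilla markers summed to 320 and 299, with a median log2 ratio of 0.08. Of 7 measured on both arrays 6 were above 1, with Rspo3 at 34.9 and 14.7, while Alpl went the other way at 26.9 and 45.5. Skeletal muscle markers summed to 142.5 and 128. Of 2 measured on both arrays 0 were above 1, while Acta1 and Myh4 were measured on the transgenic array alone. The Y-linked gene Eif2s3y lay under the floor in the transgenic pool and read 191 in the wild-type pool, and Xist, the RNA of the inactive X chromosome, read 1146 and 352. Kdm5d and Uty, also Y-linked, were under the floor in the transgenic pool and read 55.3 and 31.3 in the wild-type pool. Y-linked RNA was thus measured in the wild-type pool alone and Xist in both. By these RNAs the pools differed in the sex of their mice as well as in genotype. The part of these differences in the clock gene values was not tested.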

How the data were processed

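Total RNA of 2 pools was hybridised to Affymetrix Mouse430_2 arrays, per the file headers, 1 array per group, on the same day and fluidics station but in different modules. The deposited table gives a linear intensity for each probe set, scaled by the authors to a 2% trimmed mean of 100 on each array, as the values show. The summary algorithm is not given in the sources used here. A scaling of this kind hides a shift shared by all genes.

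The 64 control probe sets were left out and 45037 remained, of which 34945 had 1 symbol in the platform annotation, 932 several and 9160 none. Probe sets with several symbols named no gene. Both columns were rescaled to an equal 2% trimmed mean over these probe sets, and signals under the floor (10.5, the 40th percentile) were set to it. The deposited columns already nearly met that mean, so the setting without rescaling gave almost the same values as the main one. Each gene was represented by the probe set with the highest mean. A gene was called at 2-fold with both signals above the floor, and a ratio to the floor is a bound. The spread is the SD of the log2 ratio within genes that have several probe sets, pooled in tertiles of brightness. The calling step was checked on simulated data with known folds in bright genes, which says nothing of dim ones. No statistical test was run, since there is 1 array per group, and with so few arrays the precision is limited.

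From each surrounding list, genes past 2-fold and up to 4 further ones with the largest log2 ratio were named, with another probe set where it had the other sign or under 50% of the size. Genes named outside this rule were chosen after their values were seen. Some genes of these lists are not reported here. The members and lists were chosen with earlier results of these data known. Promoter windows came from RefSeq (GRCm38.p6). Python 3.11.15 with numpy 2.4.6, pandas 2.3.3, scipy 1.17.1, statsmodels 0.14.6 and matplotlib 3.10.9 was used. Alternatives were other scalings (equal medians, none, equal spiked controls, quantile, loess with a span of 0.3), other floors (20th and 60th percentile, 50, and 15.8, which was added after seeing the data), a pseudocount, other choices of probe set, and thresholds of 1.5-fold and 3-fold.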

Additional observations from a re-analysis of the deposited data

How the results depend on the processing

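Of 230 values of member probe sets under other settings, 203 moved by less than the SD between probe sets and 27 by more. The 27 were all under another floor or a pseudocount, which set a dim signal to the floor or freed it. The count of 203 says little about stability. No rescaling nearly repeated the main setting, and scalings by a constant shifted ratios by less than this SD. Probe sets under the floor on both arrays stayed at or near 0 under every scaling. The sign turned in 3 of the 230 values, all of Cry2, at -0.13 with equal medians, -0.03 with quantile normalization and -0.05 with loess. The number of members 2-fold higher with both signals measured was 1 (Nr1d1) with the floor at the 20th percentile and 3 (Clock, Per2 and Per3) at 1.5-fold. Nr1d1 was no longer 2-fold above the floor with the floor at the 60th percentile or at 50, so that the count of such bounds was 0 there, and also at the 20th percentile, where both its signals were measured. No member was lower under any setting tried. The median of the members was 0.62 with equal spiked controls, 0.008 with a floor of 50, -0.035 with the mean over probe sets and 0.66 without probe sets that can match several transcripts. The difference of the arms ranged from -0.65 to -0.21. The median of all genes moved from 0.01 to -0.13 with equal medians and to 0.19 with equal spiked controls.

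Among the other clock transcription factors, 0 were higher (Rora did not reach the threshold) with equal medians, quantile normalization, loess, a pseudocount, the mean over probe sets or a 3-fold threshold, 2 were higher at 1.5-fold, and 1 was lower at 1.5-fold and with the floor at the 20th percentile. Their median was 0.071 with equal spiked controls, and that of the enzymes and cofactors was 0.37. Among the enzymes and cofactors, 0 were higher with equal medians, quantile normalization, loess, a floor of 50, a pseudocount or 3-fold, and 1 was lower at 1.5-fold. At that threshold 1 output gene and 2 glucocorticoid response genes were lower. The glucocorticoid count was 0 with the floor at the 60th percentile, at 50 or at 15.8. Over all genes, higher and lower calls were 115 and 296 with equal medians, 314 and 103 with equal spiked controls, 845 and 685 with the floor at the 20th percentile, 50 and 61 at the 60th, 22 and 37 with a floor of 50, 98 and 118 with a floor of 15.8, 53 and 76 with a pseudocount, 735 and 784 at 1.5-fold and 27 and 40 at 3-fold. With the mean over probe sets they were 103 and 128. The causes of these shifts between scalings were not tested. No paired analysis was possible because each group holds 1 array. Of the 10 members, 7 lie in the dim tertile, where ratios between probe sets scatter most, and 8 exceed the brightest control without a target on both arrays.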

Other observations

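Gsk3b, a kinase that modifies several clock proteins, had a ratio above 1 in 6 of 6 probe sets measured on both arrays, chosen here after its values were seen. Its brightest probe set, 1454958_at, read 390 in the transgenic pool and 292 in the wild-type pool, a log2 ratio of 0.42, and 1434439_at read 47.7 and 20.2, a log2 ratio of 1.24. The mean log2 ratio over its probe sets was 0.57 with an SD between them of 0.39. Crebbp, a coactivator of the activating pair, had ratios above 1 in 3 of 3 such probe sets, with a mean log2 ratio of 0.35 and an SD of 0.08. Of genes with at least 3 probe sets measured on both arrays, 19.5% had all ratios above 1 and 12.2% all below.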
